A study of Mus musculus with 12 samples.

Results

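The subject is chromosome 15 in 12 mouse tumours, read by the 6670 array probes placed on it. They were chosen as every probe that is not a control and whose position in the array files lies on chromosome 15 of build mm9. Of 6681 such probes, 6670 had a value on all 12 arrays, and they made up 4.14% of the 161102 autosomal probes used. The chromosome was selected on earlier measured log2 ratios of these tumours, so its levels below are a description and carry no test. Tumour DNA labelled with Cy5 was hybridised on 1 array per tumour against DNA of normal C57BL/6 kidney labelled with Cy3, by comparative genomic hybridisation. The value of a probe is the log2 of the red over the green processed intensity, set so that the most common autosomal value (the mode) of each array is 0. A positive value therefore stands for more tumour than reference DNA relative to the rest of the same genome.

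The carcinomas were 4 renal cell carcinomas, all from mice given Fe-NTA. KO1080, KO1097 and KO1134 came from Mutyh knockout mice and WT1179 from a wild type. The lymphomas were 8 malignant lymphomas. KO1077 and KO1111 came from knockouts given Fe-NTA and KO1414 from an untreated knockout. WT1113, WT1114 and WT1121 came from wild types given Fe-NTA, and WT1405 and WT1420 from untreated wild types. All mice were C57BL/6, and the number in each name is that of the animal. Fe-NTA, ferric nitrilotriacetate, is an iron chelate that damages the proximal tubules of the kidney. Treated groups, each begun with 20 male mice, had 5 intraperitoneal injections weekly for 12 weeks, with 3 mg and later 5 mg of iron per kg of body weight. Mice of all groups were killed at about 120 weeks. Mutyh encodes a DNA glycosylase that removes adenine paired with oxidised guanine. The tumours are bulk tissue, in which the share of normal cells is not given, so a gain in part of the tumour cells and a gain diluted by normal cells cannot be told apart. The labels do not say whether any tumours share an origin, and each tumour has no repeat array.

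Mouse chromosome 15 carries Myc, a transcription factor that drives growth and cell division, and next to it Pvt1, a long non-coding RNA gene. An extra chromosome 15 is a well-known change in mouse lymphomas and leukaemias. The array had 0 probes named Myc. In the RefSeq gene order of build GRCm38, Myc lies between the pseudogene Gm18788 and Pvt1. The Myc neighbourhood is therefore read here as the 198 probes that start between 60000000 and 64000000, among which 23 are named Pvt1.

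The probes that flank the 3 breaks of carcinoma WT1179, and the first probe of Pvt1, anchor the positions given below. Each is printed as the 60 bases the array files hold. The base letters are in lower case throughout, since no part of a probe is singled out.

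Last gained probe before the highest step, chr15:43174872-43174931: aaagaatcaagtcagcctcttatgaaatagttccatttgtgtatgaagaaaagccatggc
First probe of the highest step, chr15:43218775-43218834: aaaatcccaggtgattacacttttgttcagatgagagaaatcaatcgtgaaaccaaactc
Last probe of the highest step, chr15:50738860-50738919: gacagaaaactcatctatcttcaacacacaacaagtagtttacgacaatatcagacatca
First probe after the highest step, chr15:50786141-50786200: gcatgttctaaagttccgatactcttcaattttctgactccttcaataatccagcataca
Last gained probe before the distal loss, chr15:81680539-81680598: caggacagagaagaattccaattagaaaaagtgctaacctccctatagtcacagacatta
First lost probe, chr15:81686267-81686326: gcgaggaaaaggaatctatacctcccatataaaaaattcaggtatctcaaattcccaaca
First probe of Pvt1, chr15:61872889-61872948: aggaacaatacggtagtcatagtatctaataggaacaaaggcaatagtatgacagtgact

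The arrays were checked before chromosome 15 was read. Between 99.87% and 99.97% of chromosome 15 spots were well above background in both dyes on the 12 arrays, 6 to 13 of its 6877 spots were marked as outliers, and 0 were saturated. The robust noise between neighbouring autosomal probes was 0.11 to 0.17 log2. Of the 6670 probes, 15 stood above their own segment by a median of more than 0.5 over the tumours, and 0 stood below by as much. The Mutyh probe at 116490496 on chromosome 4 read -3.21 to -2.39 in the 6 knockout tumours, against -0.75 to 0.14 in the 6 wild-type tumours, so every genotype label fitted its array. Focal losses at the distal end of chromosome 12, where the immunoglobulin heavy chain locus lies, were found in 0 of 4 carcinomas and in 7 of 8 lymphomas, WT1405 being the exception. The arrays lay on 3 slides of 4, and slide 1 held the 4 carcinomas. Tumour type and slide 1 cannot be told apart, whereas the 4 tumours with a raised chromosome 15 lay on all 3 slides. Slide 3 held the 3 tumours of untreated mice and, of treated mice, only WT1121. Treatment and slide 3 are therefore hard to tell apart as well.

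Chromosome 15 was raised as a whole or in part in 4 of the 12 tumours. Its mean log2 ratio was 0.19 in carcinoma WT1179, 0.37 in lymphoma WT1113, 0.29 in lymphoma WT1405 and 0.22 in lymphoma KO1111. These 4 are the tumours with a mean of at least 0.1. The tumour just inside that limit was WT1179, and the one just outside was WT1114 at 0.07. Over the other 18 autosomes of the 12 tumours, 17 of 216 chromosome means, or 7.87%, reached 0.1. Among lymphomas chromosome 1 reached it in WT1113, WT1114 and WT1405, and chromosome 11 in KO1077, KO1111 and WT1405, as many as for chromosome 15. In the other tumours the chromosome 15 mean was -0.01 in KO1080, 0.04 in KO1097 and 0.00 in KO1134 among the carcinomas. Among the lymphomas it was 0.07 in KO1077, 0.02 in KO1414, 0.07 in WT1114, 0.01 in WT1121 and 0.00 in WT1420. The raised values came from the tumour dye. Against the median of each probe over the arrays, the Cy5 signal of chromosome 15 was shifted by 0.13, 0.25, 0.14 and 0.08 log2 in WT1179, WT1113, WT1405 and KO1111, while over all 12 arrays the Cy3 signal of the reference was shifted by -0.01 to 0.01.

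**Figure D1:**
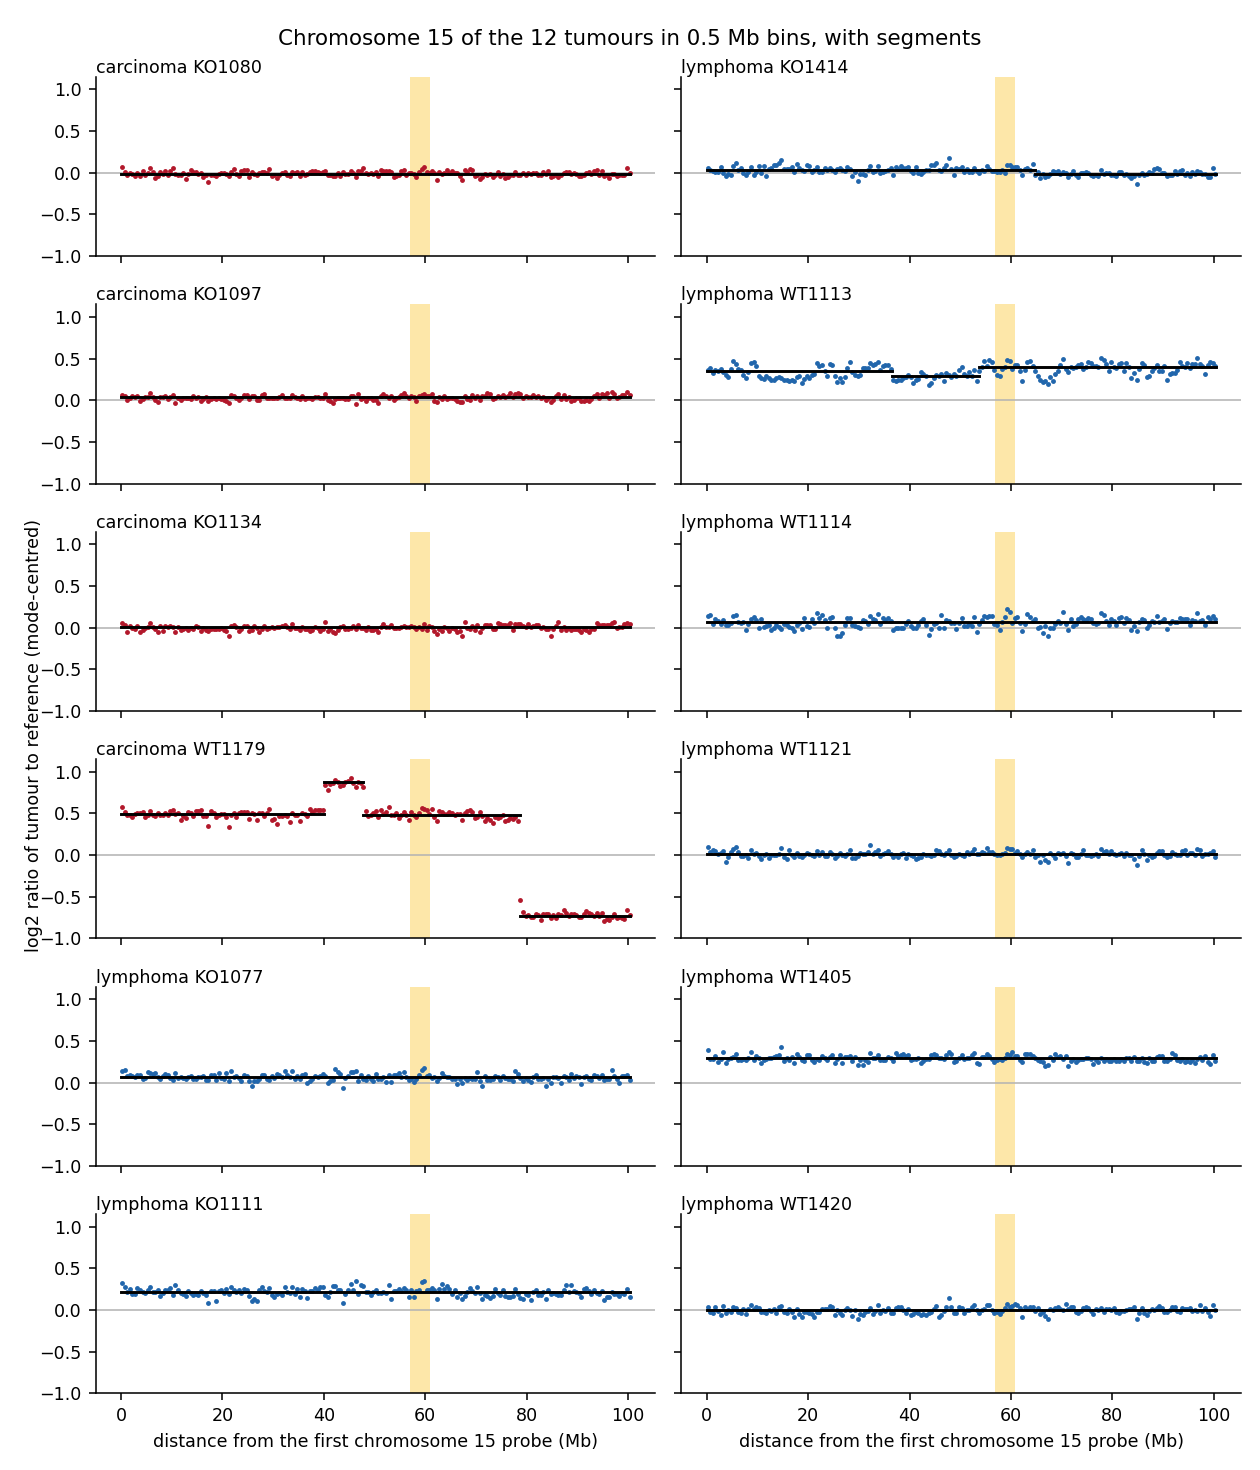
Log2 ratio along chromosome 15 in each of the 12 tumours, as means of 0.5 Mb bins (points: red for carcinomas, blue for lymphomas) against the distance from the first probe, with segments as black lines and the Myc neighbourhood shaded. WT1179 shows 2 gained stretches, a step at 0.88 between them and a distal loss at -0.73, while WT1113, WT1405 and KO1111 lie above 0 from end to end.

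The raised tumours were not raised in the same way. The forms were a partial gain with a step and a terminal loss in WT1179, a whole-chromosome gain with small internal differences in WT1113, and a flat whole-chromosome shift in WT1405 and KO1111. Segments came from penalised least squares over the probes, and segments of 5 or more probes were called gained from a mean of 0.25 upwards and lost from -0.25 downwards. By this rule 73.6% of chromosome 15 probes were called gained in WT1179, against 5.61% of all autosomal probes of that tumour. In WT1179 26.4% were called lost, against 15% of its autosomal probes. In WT1113 100% of chromosome 15 probes were called gained, against 8.37% of its autosomal probes, and in WT1405 100%, against 20.1% of its autosomal probes. KO1111 and the other 8 tumours had no chromosome 15 call. These calls rest on the values for which the chromosome was selected.

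Carcinoma WT1179 was the only one of the 12 tumours with both a gain and a loss on chromosome 15, and the only carcinoma with either. The first gained segment ran from 3114799 to 43174931 and averaged 0.49 ± 0.15 (SD over 2479 probes). The highest step ran from 43218775 to 50738919, spanned 7.52 Mb and averaged 0.88 ± 0.17 (SD over 377 probes). The gain then went on from 50786141 to 81680598 at 0.48 ± 0.15 (SD over 2055 probes), close to the 0.49 of the first gained segment. From 81686267 to the last probe at 103460314, 21.8 Mb in all, the mean was -0.73 ± 0.20 (SD over 1759 probes). The gained part as a whole spanned 78.6 Mb.

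Nearly every probe of a segment stood on the same side of 0. The share above 0 was 99.6% in the first gained segment, 100% in the step and 99.4% in the second gained segment, while 99.5% of probes in the distal segment were below 0. On the other autosomes of WT1179, 46.0% of probes were above 0. The middle 90% of probes, from the 5th to the 95th percentile, lay between 0.27 and 0.72 in the first gained segment, between 0.63 and 1.13 in the step, and between -0.99 and -0.38 in the distal segment. The step and the distal loss therefore share no values within those bounds, and the step overlaps its flank only in part.

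Over the same intervals the other 11 tumours were level with the rest of their own chromosome 15. In the step interval, the difference from the rest of the chromosome was 0.73 in WT1179, against -0.10 to 0.05 in the other tumours, with a median of -0.01. In the distal interval the difference was -1.24 in WT1179, against -0.03 to 0.04 in the other tumours. The lowest of these in the step interval was WT1113, whose own middle segment, described below, covers that interval.

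The breaks were placed to within the distance between probes. The gap at the start of the step was 43.8 kb, the gap at its end 47.2 kb, and the gap at the start of the loss 5.67 kb. For each break, the 10 probes on each side were compared. At the start of the step they averaged 0.95 ± 0.31 inside and 0.57 ± 0.11 before it (SD, 10 probes each). At its end they averaged 1.01 ± 0.13 inside and 0.57 ± 0.20 after it. At the distal break they averaged -0.71 ± 0.18 in the loss and 0.48 ± 0.12 before it. In the other 11 tumours the change from the 10 probes before a break to the 10 after it was -0.04 to 0.14 at the start of the step, -0.05 to 0.03 at its end and -0.09 to 0.03 at the distal break. The first probe of the step, printed above, read 1.64 in WT1179 and also ran high in other tumours, with a median of 0.15 and a highest value of 0.83, so it overstates the step. The first lost probe read -0.60 in WT1179, against 0.03 to 0.54 in the other tumours.

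**Figure D2:**
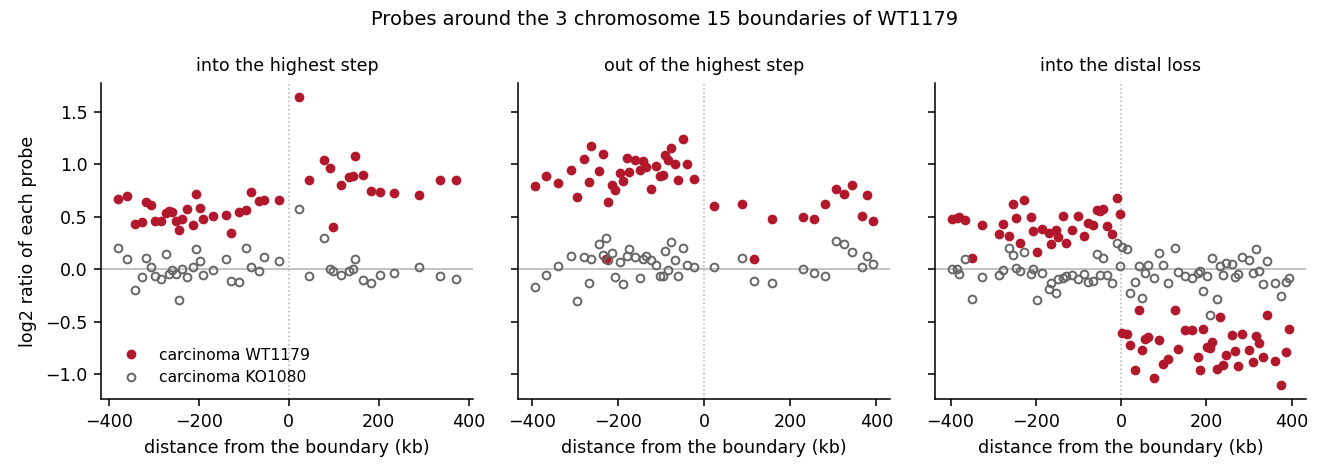
Log2 ratio of each probe around the 3 breaks of carcinoma WT1179 (filled red) and in carcinoma KO1080 (open grey) against the distance from the break in kb. The 10 probes on each side of the distal break average -0.71 in the loss and 0.48 before it in WT1179, while KO1080 shows no step at any of the 3 breaks.

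The distal break fell inside a gene. Both flanking probes are named Tob2, a member of the Tob/BTG family of proteins that restrain proliferation, and they read 0.53 before the break and -0.60 after it. The nearest named genes at the start of the step were Eif3e, a translation initiation factor subunit 62.1 kb before it, and the array's ENSMUST00000100683, 57.3 kb after it. At the end of the step Trps1, a GATA-type zinc finger repressor, lay 26.4 kb inside, and the array's AK046060 lay 283 kb outside. Neither Eif3e nor Trps1 had probes on both sides of a break.

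The step held 19 gene names, 13 of them with at least 2 probes. All 13 had means above 0 in WT1179, between 0.65 and 0.97 with a median of 0.87. Of the probes on its other autosomes, 46.0% were above 0. Csmd3, a very large gene for a membrane protein with CUB and sushi domains, was read by 120 probes and averaged 0.91 in WT1179. In the other carcinomas Csmd3 averaged 0.00 in KO1080, 0.03 in KO1097 and -0.01 in KO1134. In the 8 lymphomas Csmd3 ranged from 0.02 to 0.34 with a median of 0.11, so WT1179 stood above all of them. Trps1 averaged 0.92 over 26 probes in WT1179. The other 3 carcinomas had 0.08, 0.02 and 0.01 for Trps1, and the lymphomas 0.04 to 0.37 with a median of 0.15.

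Other genes of the step lay between its start and Csmd3. Nudcd1 averaged 0.97 over 6 probes, and Ttc35, now Emc2, a subunit of the endoplasmic reticulum membrane complex, 0.91 over 4 probes. Pkhd1l1, a relative of the polycystic kidney gene Pkhd1, averaged 0.88 over 14 probes in WT1179. Sybu, an adaptor that links cargo to kinesin, averaged 0.84 over 13 probes, and Trhr, the receptor for thyrotropin-releasing hormone, 0.84 over 4 probes. Ebag9 had the lowest mean of the 13 genes, 0.65 over 3 probes. Ebag9 also read low in WT1113, at 0.14, where the whole chromosome was gained. The 13 genes formed a block of raised neighbours with means from 0.65 to 0.97. Whether single genes departed from the level of the step was not tested.

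**Figure D3:**
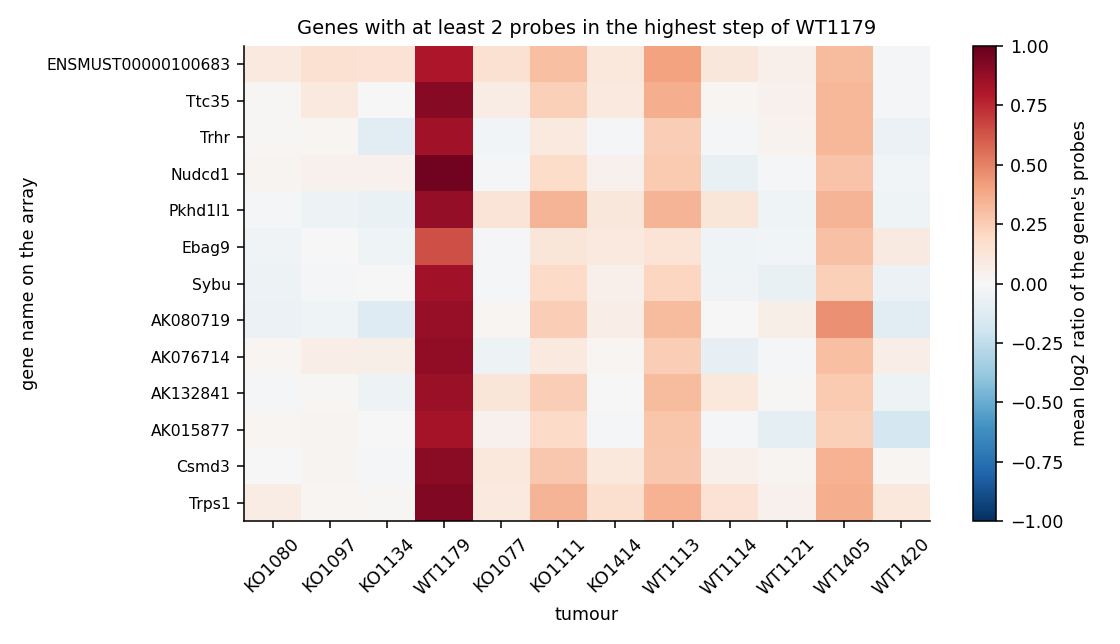
Mean log2 ratio of the 13 genes with at least 2 probes in the highest step of WT1179 (rows, in chromosome order) in the 12 tumours (columns), on a colour scale from -1 to 1. The WT1179 column is between 0.65 and 0.97 in all 13 rows.

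The levels of WT1179 can be turned into cell shares by arithmetic, on the assumption of otherwise diploid cells and ratios that follow copy number without compression. With 1 extra copy, the gained segments give 80.8% and 78.7% of cells. With 2 extra copies the step gives 83.4%, and with 1 copy lost the distal segment gives 79.0%. In every cell such states would read 0.58, 1 and -1 log2. Other large segments of WT1179 gave like shares under the same assumptions: 78.1% for the loss of chromosome 12 and 78.4% and 80.0% for the 2 segments of the chromosome 4 loss. On chromosome 13 the values were 81.1% for a gain and 78.2% for a loss. On chromosome 5 a gain gave 72.1% and a loss 77.8%. The 2 gained segments and the distal loss of chromosome 15 lay within this range of 72.1% to 81.1%, and the step lay above it.

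Lymphoma WT1113 had the highest chromosome 15 mean of the 12 tumours, 0.37, and chromosome 15 was its highest autosome of 19. All 101 bins of 1 Mb were above 0, the lowest at 0.23 and the highest at 0.48. Its other raised chromosomes were chromosome 7 at 0.25 and chromosome 1 at 0.20, and its 15 autosomes within 0.1 of 0 ranged from -0.08 to 0.06. The gain was divided into 3 segments. The first averaged 0.35 ± 0.16 over 2259 probes, the second, from 39626576 to 56767622, 0.29 ± 0.16 over 956 probes, and the third 0.40 ± 0.17 over 3455 probes (SD over probes). The segmentation placed the breaks between probes of Dpys, a pyrimidine breakdown enzyme, and between probes of the array's AK131772. The steps of -0.06 and 0.11 were smaller than the SD of single probes, which is not the uncertainty of a segment mean. At the first break the 10 probes on each side averaged 0.29 beyond it and 0.37 before it in WT1113. In the other tumours the difference across that break was -0.06 to 0.13. At the second break the 10 probes on each side averaged 0.37 beyond it and 0.20 before it in WT1113, and in the other tumours the same difference was 0.02 to 0.18.

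Lymphoma WT1114, hybridised on the same slide, had the same order of levels without the gain. In the 3 intervals WT1114 averaged 0.07, 0.03 and 0.08, and the difference of WT1113 from it was 0.28, 0.25 and 0.31. Over the 101 bins of 1 Mb, the correlation of WT1113 with WT1114 was 0.87, the highest of 66 pairs of tumours, whose range was -0.36 to 0.87. The bins share the probes, the reference and, for this pair, the slide. In the second interval the level differed from the rest of the chromosome by -0.09 in WT1113, against -0.04 to 0.04 in the 10 tumours other than WT1113 and WT1179. The part of shared probe behaviour in these 3 levels was not tested. Taken as 1 extra copy, the 3 segments give 54.8%, 43.8% and 63.7% of cells, and the 2 gained segments of its chromosome 7 give 62.8% and 76.2%.

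Lymphoma WT1405 had a single segment over the whole chromosome at 0.29 ± 0.18 (SD over 6670 probes). All 101 bins were above 0, from 0.22 to 0.39, and 96.9% of its chromosome 15 probes were above 0, against 62.9% of its other autosomal probes. The proximal and distal parts, divided at the middle of the chromosome, averaged 0.30 and 0.28. Chromosome 15 ranked second of 19 autosomes in WT1405. Chromosome 6 was higher at 0.52, and chromosomes 11, 17, 1, 5 and 18 followed at 0.27, 0.27, 0.24, 0.23 and 0.23. With 1 extra copy the chromosome 15 level gives 44.5% of cells, against 86.0% for chromosome 6. The 2 chromosomes of WT1405 thus stood at different levels on the same array. Its 12 autosomes within 0.1 of 0 ranged from -0.02 to 0.07.

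Lymphoma KO1111 was flat as well, with a single segment at 0.22 ± 0.20 (SD over 6670 probes), just under the call limit of 0.25. All 101 bins were above 0, from 0.12 to 0.34, and 89.1% of chromosome 15 probes were above 0, against 56.5% of its other autosomal probes. The proximal and distal parts averaged 0.22 and 0.21. Chromosome 16 was at the same level, 0.22, and chromosomes 17, 14 and 11 reached 0.17, 0.13 and 0.11. The 14 autosomes of KO1111 within 0.1 of 0 ranged from -0.03 to 0.08, all below chromosome 15. With 1 extra copy the level gives 32.3% of cells for chromosome 15 and 33.3% for chromosome 16. KO1111 also had the highest probe SD of the flat chromosomes, so single genes in it are less certain than in WT1405.

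**Figure D4:**
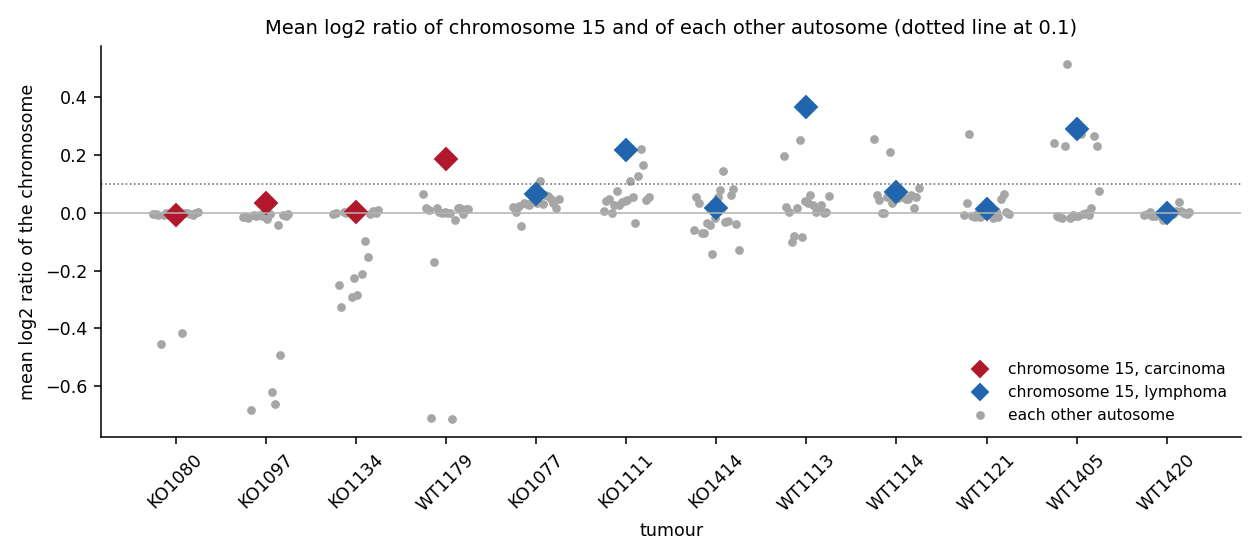
Mean log2 ratio of chromosome 15 (diamonds: red for carcinomas, blue for lymphomas) and of each of the other 18 autosomes (grey points) in the 12 tumours, with a dotted line at 0.1. Chromosome 15 is the highest autosome in WT1179, WT1113 and KO1097, and lies at the level of chromosome 16 in KO1111.

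Below 0.1, small shifts of the whole chromosome were seen in some tumours. In carcinoma KO1097 the chromosome 15 mean was 0.04, the highest of its 19 autosomes, and its 14 other autosomes within 0.1 of 0 ranged from -0.04 to 0.00. In KO1097 97 of 101 bins were above 0, and 64.3% of chromosome 15 probes were above 0, against 38.3% of its other autosomal probes. With 1 extra copy the level gives 4.99% of cells. The level was far below the probe SD of 0.12, which is not the uncertainty of a chromosome mean, and with 1 array per tumour it has no repeat. The bins of KO1097 correlated at 0.81 with those of KO1134, on the same slide, whose chromosome 15 mean was 0.00.

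In lymphoma KO1077 all 101 bins were above 0 and the mean was 0.07, but its other autosomes within 0.1 of 0 reached 0.06. Lymphoma WT1114 had the same mean of 0.07, and 2 of its level autosomes were at least as high as chromosome 15. Chromosome 15 thus lay narrowly above the level autosomes in KO1077 and among them in WT1114. In lymphoma KO1414 the segments gave 0.04 up to 67765302 and -0.01 beyond it. The 10 probes beyond that place averaged -0.07 and the 10 before it 0.11 in KO1414. In the other tumours the same difference was -0.12 to 0.00 with a median of -0.06, so they too tended to be lower beyond it. In lymphoma WT1420 chromosome 15 averaged 0.00, and 1 probe at 100455290 read 2.21. Carcinomas KO1080 and KO1134 and lymphoma WT1121 had means of -0.01, 0.00 and 0.01.

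The Myc neighbourhood was raised in the same 4 tumours. The 198 probes averaged 0.50 ± 0.15 in WT1179, 0.39 ± 0.16 in WT1113, 0.30 ± 0.18 in WT1405 and 0.24 ± 0.21 in KO1111 (SD over probes). In the other carcinomas the neighbourhood averaged 0.00 in KO1080, 0.04 in KO1097 and 0.00 in KO1134. In the other lymphomas it averaged 0.08 in KO1077, 0.04 in KO1414, 0.10 in WT1114, 0.04 in WT1121 and 0.02 in WT1420. The 4 raised tumours did not overlap the other 8. The 198 probes are part of the chromosome 15 mean that set the 4 apart, so this is not a separate result. The same holds for the single genes of the neighbourhood given below.

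No segment began or ended within the neighbourhood in any of the 12 tumours, and its mean was close to that of the surrounding segment. With 0 probes named Myc and positions of Myc known here only as gene order in another build, the gene itself was not read, and a gain limited to it was not tested. The neighbourhood minus the rest of chromosome 15 was 0.33 in WT1179 and between 0.00 and 0.03 in the other 11 tumours. The value of WT1179 came from the distal loss, which lowers the rest of its chromosome: the neighbourhood averaged 0.50 and the rest 0.18. Set against the rest of its own segment, the neighbourhood of WT1179 differed by 0.03, at 0.50 against 0.48. By that measure the 12 tumours ranged from -0.01 to 0.03, with a median of 0.02. In WT1179 the neighbourhood lay 9.26 Mb beyond the end of the highest step and 17.7 Mb before the start of the loss. The highest step thus left it out. The small positive differences were seen in tumours with and without a gain, 0.03 in KO1111 and 0.03 in WT1420.

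**Figure D5:**
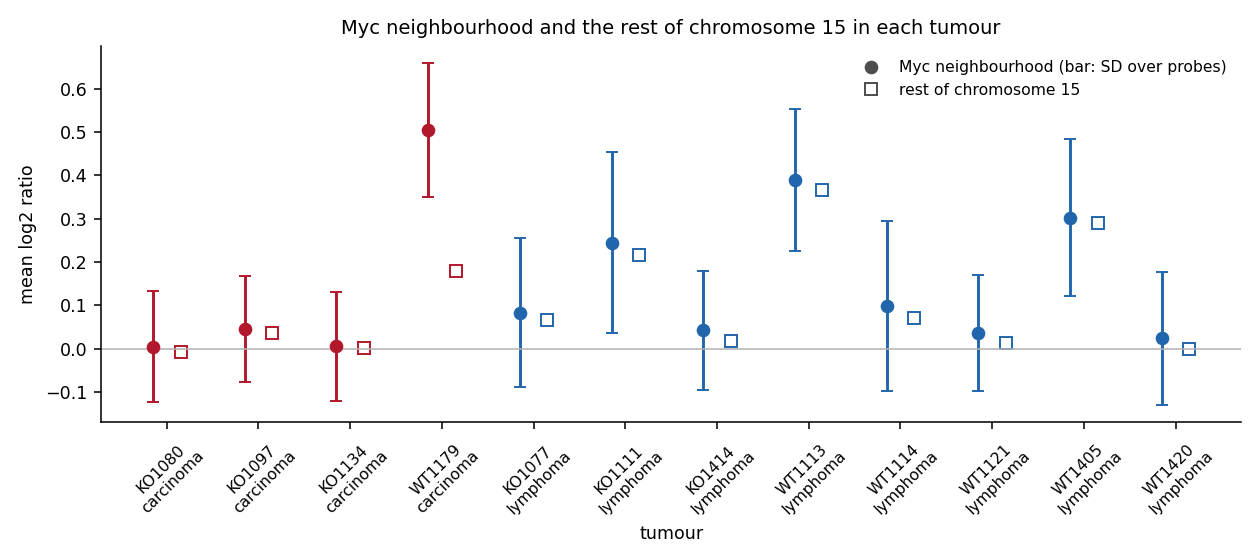
Mean log2 ratio of the 198 probes of the Myc neighbourhood (filled circles, with the SD over probes) and of the rest of chromosome 15 (open squares) in the 12 tumours, carcinomas in red and lymphomas in blue. The 2 marks coincide to within 0.03 in 11 tumours, and in WT1179 they are at 0.50 and 0.18.

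Single genes of the neighbourhood followed it. Of its 21 gene names, 21 were above 0 in WT1179, 21 in WT1113, 21 in WT1405 and 19 in KO1111, against 9 to 16 in the other 8 tumours. Of the probes on other autosomes, 46.0% were above 0 in WT1179, 53.6% in WT1113, 62.9% in WT1405 and 56.5% in KO1111. In the other 8 tumours that share was 34.9% to 59.4%. Pvt1, the nearest named neighbour of Myc, averaged 0.50 over 23 probes in WT1179. In the other carcinomas Pvt1 averaged 0.00 in KO1080, 0.06 in KO1097 and 0.01 in KO1134. Among the lymphomas Pvt1 averaged 0.38 in WT1113, 0.29 in WT1405 and 0.23 in KO1111, and the lymphoma values ran from -0.03 to 0.38 with a median of 0.08. Pvt1 in the 4 raised tumours stood above Pvt1 in the other 8, whose highest value was 0.10. Asap1, a GTPase-activating protein for Arf proteins, averaged 0.54 over 30 probes in WT1179, 0.45 in WT1113, 0.34 in WT1405 and 0.26 in KO1111, against 0.02 to 0.15 in the other 8 tumours. Fam49b, now Cyrib, which binds Rac1, averaged 0.51 in WT1179, 0.45 in WT1113, 0.34 in WT1405 and 0.28 in KO1111, against -0.02 to 0.14 in the other 8.

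The lowest gene of the neighbourhood in WT1179, WT1113 and WT1405 was Gsdmc, a member of the gasdermin family of pore-forming proteins. Over 3 probes Gsdmc averaged 0.16 in WT1179, 0.17 in WT1113, 0.08 in WT1405 and -0.10 in KO1111. Gsdmc sits in a cluster of close paralogues. The other array names that begin with Gsdmc averaged 0.26 to 0.58 in WT1179, all above Gsdmc itself. Whether the paralogues affect the values of Gsdmc was not tested. The array's AK163289, between the start of the neighbourhood and Pvt1, averaged 0.40 over 14 probes in WT1179 and -0.09 in KO1134. The array's ENSMUST00000171111, just beyond Pvt1, averaged 0.63 over 9 probes in WT1179 and 0.09 in KO1134. The order of these 3 names, ENSMUST00000171111 above Pvt1 above AK163289, was the same in all 12 tumours, so it was also present where the chromosome was level.

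The 4 lists of chromosome 15 genes, chosen with earlier results of these data known, show how the gains and the loss divide the genes. The limit used for a gene is a mean of 0.25 from 0. Of 43 genes in the list of growth genes on the middle of the chromosome, 39 had a name on the array. In WT1179 38 of the 39 were above 0.25, with a median of 0.53, against 6.99% of all autosomal genes and a median of -0.01 over them. The exception was Gsdmc. In WT1113 36 of 39 were above 0.25 with a median of 0.37, against 14.4% and 0.06 over all genes. In WT1405 32 of 39 were, with a median of 0.33, against 23.7% and 0.07 over all genes. In KO1111 22 of 39 were, with a median of 0.27, against 11.5% and 0.05 over all genes. Of all 818 chromosome 15 genes, 484 were above 0.25 in WT1179, 739 in WT1113, 512 in WT1405 and 273 in KO1111. Since these values chose the chromosome, nothing further is read from the counts.

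Among these genes Rad21, a subunit of cohesin, averaged 0.52 in WT1179, 0.42 in WT1113, 0.35 in WT1405 and 0.36 in KO1111. Ptk2, the focal adhesion kinase gene, was read by 21 probes and averaged 0.51 in WT1179, 0.57 in WT1113, 0.34 in WT1405 and 0.33 in KO1111. Ext1, which builds heparan sulphate chains, averaged 0.54, 0.39, 0.31 and 0.29 over 30 probes in WT1179, WT1113, WT1405 and KO1111. Ptk2 in WT1113 and Rad21 and Ptk2 in KO1111 stood above their segments, which averaged 0.40 in WT1113 and 0.22 in KO1111. Both genes also stood above the chromosome mean of 0.07 in KO1077 and WT1114, on the same slide. There Ptk2 read 0.15 and 0.22, and Rad21 0.27 and 0.14. In the remaining tumours without a raised chromosome 15, Ptk2 was -0.02 to 0.05 and Rad21 -0.04 to 0.09. The excess was thus not limited to gained tumours.

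The proximal list held receptor and cell cycle genes, and 19 of 20 were measured. In WT1179 19 of 19 were above 0.25 with a median of 0.54, in WT1113 19 with a median of 0.35, in WT1405 17 with a median of 0.32 and in KO1111 13 with a median of 0.28. Over all autosomal genes the shares above 0.25 were the 6.99%, 14.4%, 23.7% and 11.5% given above for WT1179, WT1113, WT1405 and KO1111. Ghr, the growth hormone receptor, averaged 0.56 over 27 probes in WT1179, 0.34 in WT1113, 0.33 in WT1405 and 0.32 in KO1111. Rictor, the defining subunit of mTOR complex 2, averaged 0.60, 0.35, 0.32 and 0.31 in WT1179, WT1113, WT1405 and KO1111. Skp2, the substrate receptor of a ubiquitin ligase that degrades cell cycle inhibitors, was highest of the list in WT1179 at 0.68 over 2 probes. Skp2 was also at 0.10 to 0.24 in the 8 tumours without a raised chromosome 15, so part of its height is common to all arrays. Il7r, the interleukin 7 receptor of lymphocytes, averaged 0.43, 0.42, 0.32 and 0.26 in WT1179, WT1113, WT1405 and KO1111.

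The lists of lymphocyte genes and of distal genes fell on both sides of the break of WT1179. Of 43 distal chromatin, differentiation and signalling genes, 30 were measured. In WT1179 22 of the 30 were below -0.25 and 6 above 0.25, against 16.1% of all autosomal genes below -0.25 and 6.99% above 0.25. The 6 were Cbx7, Pdgfb, Mkl1, Rbx1, Ep300 and L3mbtl2, all before the break. Ep300, a histone acetyltransferase, averaged 0.46 over 7 probes in WT1179 and 0.52 in WT1113. Beyond the break Xrcc6, the Ku70 subunit of double-strand break repair, averaged -0.79 in WT1179 and 0.38 in WT1113. Arid2, a subunit of the PBAF chromatin remodeller, averaged -0.77 over 11 probes in WT1179, against -0.04 to 0.42 in the other 11 tumours. Mll2, now Kmt2d, a histone methyltransferase, averaged -0.67 over 5 probes in WT1179 and 0.50 in WT1113. Slc38a2 at -0.11 and Hoxc5 at -0.05, each with 1 probe, were the 2 distal genes of the list beyond the break that were not below -0.25 in WT1179. In the other carcinomas Slc38a2 read -0.09 to 0.21 and Hoxc5 0.24 to 0.62, so WT1179 was the lowest carcinoma for both. Hoxc5 ranged from -0.14 to 0.98 in the lymphomas, so its probe varies widely.

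In WT1113 29 of the 30 distal genes were above 0.25, with a median of 0.43, in WT1405 15 with a median of 0.25 and in KO1111 10 with a median of 0.18. The shares of all autosomal genes above 0.25 were 14.4% in WT1113, 23.7% in WT1405 and 11.5% in KO1111. Of 13 lymphocyte genes 9 were measured. In WT1179 6 of the 9 were above 0.25, against 6.99% of all autosomal genes, and 3 below -0.25, against 16.1%, namely Nfam1, Irak4 and Itgb7 beyond the break. In WT1113 9 were above 0.25, in WT1405 8 and in KO1111 5. Il2rb, the beta chain of the interleukin 2 receptor, averaged 0.63 over 2 probes in WT1179, 0.79 in WT1113, 0.39 in WT1405 and 0.47 in KO1111. Il2rb ranged from -0.04 to 0.37 in the other 8 tumours, so its probes vary where the chromosome was level. Genes of the 4 lists with no name on the array, Myc among them, were not read.

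Soat2, an enzyme that esterifies cholesterol, departed from its segment in the carcinomas. Over 2 probes its mean was -1.44 in WT1179, and -0.54, -0.49 and -0.68 in the carcinomas KO1080, KO1097 and KO1134. In the 8 lymphomas Soat2 ranged from -0.17 to 0.47 with a median of 0.02. The carcinomas and lymphomas did not overlap, although chromosome 15 as a whole was level in KO1080, KO1097 and KO1134. The carcinomas shared slide 1, so tumour type and slide cannot be told apart for Soat2.

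Raised chromosome 15 was not tied to 1 group of tumours. By tumour type it was seen in 1 of 4 carcinomas and in 3 of 8 lymphomas. Chromosome 15 averaged 0.05 ± 0.09 over the carcinomas and 0.13 ± 0.14 over the lymphomas (SD, n = 4 and n = 8), so the difference was smaller than either spread. Without WT1179 the carcinomas averaged 0.01. By genotype 1 of 6 knockout and 3 of 6 wild-type tumours were raised. The knockout lymphomas averaged 0.10 ± 0.10 and the wild-type lymphomas 0.15 ± 0.17 (SD, n = 3 and n = 5). By treatment 3 of 9 tumours of Fe-NTA mice and 1 of 3 tumours of untreated mice were raised. Among lymphomas the mean was 0.15 ± 0.14 with Fe-NTA and 0.10 ± 0.16 untreated (SD, n = 5 and n = 3). In both comparisons the ranges overlapped. The 3 untreated tumours all lay on slide 3, where WT1121 was the only treated one, so treatment and slide are hard to tell apart.

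Gene by gene, the 3 contrasts were fitted together over 20281 autosomal genes with limma, and Benjamini-Hochberg adjusted p under 0.05 was called. Between carcinomas and lymphomas 46 of 818 chromosome 15 genes were called, or 5.62%, against 13.6% of all genes. Of the 46, 6 were higher and 40 lower in carcinomas, with arrays centred on the mode. With each array centred on its median instead, 18 were higher and 22 lower, so the size of the split depends on centring. With slide as a random block 76 were called, and with normexp background correction 26. The block, with an estimated correlation of -0.04, does not separate slide from tumour type, since all carcinomas lay on slide 1. Without WT1179 9 genes were called, without KO1111 19, without WT1114 23 and without WT1420 28. Chromosome 15 was chosen on values of these tumours and its genes move together, so nothing is read from the share of called genes. The number depended on single tumours, on WT1179 most of all.

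The 5 chromosome 15 genes with the smallest adjusted p between tumour types were ENSMUST00000160994, Soat2, AK040795, Scrt1 and Dazap2. Their p-values rest on values for which the chromosome was chosen, so they only order the genes and are not read as tests. For all 5 genes tumour type cannot be told apart from slide 1. Soat2 differed by -0.93 ± 0.18 (log2, SE; limma adjusted p = 0.00249). ENSMUST00000160994 differed by -0.79 ± 0.15 (SE; limma adjusted p = 0.00218) and read -0.72 in WT1179 and -0.09, -0.22 and -0.67 in the other carcinomas, against 0.06 to 0.59 in the lymphomas. Dazap2 differed by -0.70 ± 0.16 and AK040795 by -0.80 ± 0.16 (SE; limma adjusted p = 0.00728 and 0.00293), each over 1 probe. Both, like Soat2 and ENSMUST00000160994, lie in the stretch lost in WT1179. AK040795 read -0.61 in WT1179 and -0.02 to 0.14 in the other carcinomas, overlapping the lymphomas at 0.03 to 0.88. Dazap2 read -0.64 in WT1179 and -0.16 to -0.10 in the other carcinomas, against -0.01 to 0.73 in the lymphomas. Scrt1, a zinc finger repressor of neuronal cells, was higher in carcinomas by 0.62 ± 0.12 (SE; limma adjusted p = 0.00305). Its single probe ranged from -0.21 to 0.63 in carcinomas and from -0.40 to 0.62 in lymphomas, so these overlapped. It read 0.38 to 0.62 in the lymphomas of untreated mice and -0.40 to -0.07 in those of Fe-NTA mice. The estimate for tumour type therefore depends on the treatment term fitted with it.

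Between knockouts and wild types 0 of 818 chromosome 15 genes were called by limma, against 0.0641% of all genes, and 101 had an unadjusted p under 0.05, or 12.3%, against 5.12% of all genes. Genes of 1 segment move together and are not independent, and leaving out 1 tumour moved the 101 to between 9 (without WT1179) and 324 (without WT1121). Between Fe-NTA and untreated 0 of 818 were called, against 0% of all genes, and 28 had an unadjusted p under 0.05, or 3.42%, against 10.47% of all genes. Leaving out 1 tumour moved the 28 to between 11 (without KO1414) and 69 (without WT1121). Without WT1121 9 were called for treatment, and without WT1179 1 was. With WT1121 left out, slide 3 held only tumours of untreated mice, so treatment and slide 3 cannot then be told apart. The median chromosome 15 difference was -0.14 for knockouts minus wild types and 0.05 for Fe-NTA minus untreated, against -0.03 and 0.02 over all genes.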

How the data were processed

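The authors deposited intensity values that are, per the file headers, background-subtracted and normalized between dyes by Agilent's linear method in Feature Extraction 10.7.1.1 (protocol CGH_107_Sep09), on mm9 positions; the submitters' processing notes name Feature Extraction 10.7. Per the file headers, the deposited LogRatio column is log10 of red over green. The deposited series table holds log2 ratios, judged from a match to the scanner values.

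Control and outlier spots were left out, and spots of a probe averaged. Each array was centred on its autosomal mode (kernel bandwidth 0.05). The segmentation penalty was 10 times log(n) times the noise variance, and both methods were tested on simulated data. Probes were averaged per gene. The gene fit used limma 3.58.1 in R 4.3.3 with additive terms for type, genotype and treatment. Array number limits precision.

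Named genes were Myc, all names at 60000000 to 64000000, 4 lists, genes at call changes, Mutyh and the 5 chromosome 15 genes with the smallest adjusted p. Step genes, other break genes and Soat2's group values were named after seeing values. Members and lists were chosen with earlier results of these data known. Alternatives were centring, bandwidth, outlier spots, normexp (offset 50), LogRatio, series table, penalty, call limit, each tumour left out, slide as a random block, and dim genes left out. Group means without raised tumours were added after seeing the data.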

Additional observations from a re-analysis of the deposited data

Results flagged for a closer look

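For 5 values, 1 tumour lay far from the others of its group. These are the values for which the chromosome was selected, so they are a description and carry no test, and in the percents called all other tumours of the group were at 0. In carcinoma WT1179 the Myc neighbourhood averaged 0.50, against 0.00 to 0.04 in the other 3 carcinomas. Its difference from the rest of chromosome 15 was 0.33. WT1179 also had 73.6% of chromosome 15 called gained and 26.4% called lost, while the other 3 carcinomas had no call there. Lymphoma WT1113 had 100% called gained, the only one of 5 lymphomas of Fe-NTA mice with a call.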

How the results depend on the processing

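Of 560 comparisons over 70 results, 544 stayed within the spread between tumours or within 1.5 times the main count. The number of tumours with a mean of at least 0.1 was 4 under every centring, bandwidth, outlier, background and source alternative. The call on WT1405 rested on the centring and the limit: 0% was called gained with median centring (chromosome mean 0.21) and 0% with a limit of 0.40, as also in WT1113 with 0.40. KO1111 was called gained over 100% at a limit of 0.15. With normexp background the Myc neighbourhood minus the rest was 0.0426 in KO1111 and 0.0336 in WT1113, while the highest step of WT1179 was 1.00. The 46 chromosome 15 genes called between tumour types became 26 with normexp and 76 with slide as a random block. That block does not separate slide 1 from tumour type. Leaving out 1 tumour gave 9 to 62, with 9 without WT1179, 19 without KO1111, 23 without WT1114 and 28 without WT1420. For treatment this gave 0 to 9 genes, 9 without WT1121 and 1 without WT1179, and for genotype 0 to 0. With WT1121 left out, treatment and slide 3 cannot be told apart. The cause of these changes was not tested. Without 1 raised tumour the chromosome 15 mean was 0.01 over carcinomas (without WT1179), and 0.10 to 0.12 over lymphomas. No paired analysis was possible because the replicate numbers are animal numbers and no groups share one.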
